A study of Mus musculus with 8 samples.

Results

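Scin, Whrn, Myo3b, Syne2 and Asb2 are 5 genes of the cytoskeleton that were taken by gene symbol from the RNA-seq table of mouse regulatory T (Treg) cells, where they are 5 of 22432 listed genes. They were chosen by their measured log2 difference between Treg cells without Nfkb2 and wild-type Treg cells, so that difference is a description below and carries no test. All 5 passed the minimum on expression, which 13797 of the listed genes passed. Treg cells are T cells that express the transcription factor Foxp3 and hold other immune cells in check.

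The table holds 8 libraries, 2 from each of 4 genotypes on the C57Bl/6 background. Every group, wild type included, carried Foxp3-CRE-YFP, a Cre recombinase with a yellow fluorescent reporter whose expression follows Foxp3, and YFP-positive cells were sorted from a pool of spleen and lymph node cells. WT cells had no floxed allele, RelB-KO cells were RelB F/F, Nfkb2-KO cells were nfkb2 F/F, and double-knockout (DKO) cells were RelB F/F and nfkb2 F/F, so deletion in these mice was limited to cells that express Foxp3 or once did. All cells were cultured for 16 h on plates coated with anti-CD3 (5 µg/ml), in medium with soluble anti-CD28 (1 µg/ml), IL-2 (10 ng/ml) and an anti-OX40 agonist (2 µg/ml). The animals' age is not given, nor is it stated whether replicates came from separate animals. A p-value therefore reflects only how far these libraries spread, which may be technical. The 2 WT libraries differ in sex-linked genes (below), so their spread is not only technical. The values are log2 expression as the authors deposited them, after their batch correction. The read depth behind each value is unknown, although the design states 30 M reads per sample. The values are not used here to compare one gene's level with another's.

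Relb and Nfkb2 encode subunits of the alternative NF-κB pathway. The Nfkb2 product is made as a long precursor that retains RelB in the cytoplasm, and signals from receptors such as OX40 trigger its processing to a shorter form that enters the nucleus with RelB. The actin cytoskeleton shapes the T cell's contact with other cells and its migration, through proteins that cut, cap, crosslink and pull on filaments. Scin encodes scinderin, a calcium-dependent actin-severing and capping protein of the gelsolin family. Whrn encodes whirlin, a PDZ-domain scaffold at the tips of the actin-filled stereocilia of inner-ear hair cells. Myo3b encodes a class III myosin, a motor with a kinase domain that is known from the tips of actin protrusions. Syne2 encodes nesprin-2, a giant protein of the outer nuclear membrane that ties actin to the SUN proteins of the inner membrane. Asb2 encodes the subunit of a Cullin-5 ubiquitin ligase that selects its substrates, among them the actin-crosslinking filamins.

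The targeted transcripts followed the labels. The Relb log2 value was 10.66 and 10.49 in WT and 10.84 and 10.83 in Nfkb2-KO, against 6.35 and 6.52 in RelB-KO and 6.74 and 7.08 in DKO. The Nfkb2 log2 value was 12.80 and 12.62 in WT and 12.67 and 12.31 in RelB-KO, against 8.75 and 8.79 in Nfkb2-KO and 9.29 and 9.85 in DKO. Foxp3, which defines the cells, had log2 values of 13.95 to 14.28. WT replicate 1 stood apart in sex-linked genes, with Xist at 8.17 against 14.61 to 15.13 elsewhere and Ddx3y at 11.60 against 4.25 to 4.35. By these genes, WT replicate 1 differed in sex from WT replicate 2 and from the knockout libraries. The 2 WT libraries were thus not from the same animal, and sex differs within WT. The differences of the 5 genes between Nfkb2-KO and WT are therefore also given without WT replicate 1, in a fit with the block. So are calls of named genes that change without it. WT is then a single library that is assumed to vary like the other groups. Libraries with the same replicate number deviated together across genes, although the values are batch corrected. Each fit was therefore repeated with the replicate number as a block.

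Of the 5 genes, 3 lie on chromosome 12, which holds 3.46% of the 12822 tested genes that could be placed. In GRCm38, Scin spans chr12:40059769-40134228 on the minus strand, Syne2 chr12:75818134-76110926 on the plus strand and Asb2 chr12:103321142-103356001 on the minus strand. Whrn lies at chr4:63414910-63495991 on the minus strand and Myo3b at chr2:70039126-70429198 on the plus strand. These are GENCODE gene bounds. An exon of Myo3b shares 70 bases with Gm13631, and one of Syne2 shares 10 bases with Mir5101, both on the same strand. The promoters of the genes are shown as a description only. Each runs from 250 bases before the RefSeq start to 50 bases after it (GRCm38.p6, 5′ to 3′ on the gene's strand). Capitals mark a loose NF-κB spelling, GGG then any 5 bases then CC on either strand, in the first 4 sequences and, in Asb2, a CArG box, the motif of serum response factor.
Scin, chr12:40134179-40134478, minus strand: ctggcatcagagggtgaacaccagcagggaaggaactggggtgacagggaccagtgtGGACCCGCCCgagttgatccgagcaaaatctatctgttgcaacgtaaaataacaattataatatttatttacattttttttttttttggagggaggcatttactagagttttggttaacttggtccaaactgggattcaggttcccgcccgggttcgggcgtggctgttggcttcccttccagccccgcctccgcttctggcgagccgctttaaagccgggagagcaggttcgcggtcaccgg
Whrn, chr4:63495942-63496241, minus strand: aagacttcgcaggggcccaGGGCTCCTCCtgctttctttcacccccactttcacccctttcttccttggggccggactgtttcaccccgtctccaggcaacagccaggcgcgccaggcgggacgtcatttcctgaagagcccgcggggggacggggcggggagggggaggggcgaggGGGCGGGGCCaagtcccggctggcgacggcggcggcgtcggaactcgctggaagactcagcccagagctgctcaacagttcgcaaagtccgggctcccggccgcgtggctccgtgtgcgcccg
Myo3b, chr2:70038876-70039175, plus strand: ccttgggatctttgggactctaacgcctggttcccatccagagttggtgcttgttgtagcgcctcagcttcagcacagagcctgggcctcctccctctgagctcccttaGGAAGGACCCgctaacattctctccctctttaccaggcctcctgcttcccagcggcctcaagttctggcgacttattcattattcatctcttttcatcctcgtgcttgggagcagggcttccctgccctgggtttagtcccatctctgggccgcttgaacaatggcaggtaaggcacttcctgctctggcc
Syne2, chr12:75818068-75818367, plus strand: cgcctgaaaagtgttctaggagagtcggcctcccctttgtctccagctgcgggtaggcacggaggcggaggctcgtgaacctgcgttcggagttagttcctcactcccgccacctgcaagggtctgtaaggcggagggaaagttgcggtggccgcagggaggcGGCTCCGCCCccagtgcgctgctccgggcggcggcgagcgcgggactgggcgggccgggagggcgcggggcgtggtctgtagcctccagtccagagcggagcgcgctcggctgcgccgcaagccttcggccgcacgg
Asb2, chr12:103355952-103356251, minus strand: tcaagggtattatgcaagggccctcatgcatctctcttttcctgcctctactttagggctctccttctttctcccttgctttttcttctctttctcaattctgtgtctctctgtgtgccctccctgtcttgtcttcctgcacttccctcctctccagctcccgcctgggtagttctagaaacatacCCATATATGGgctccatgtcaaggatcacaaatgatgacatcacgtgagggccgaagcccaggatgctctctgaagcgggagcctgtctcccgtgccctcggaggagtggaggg

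Counted from the start, the NF-κB spelling began at base -193 in Scin, at -231 and -73 in Whrn, at -141 in Myo3b and at -87 in Syne2. No match was in the 2 Asb2 promoters that the table lists. This loose spelling occurs in 50.8% of the 32851 promoters of the same length, so a match is common. The CArG box of Asb2 (CC, any 6 of A or T, then GG) began at base -64, and such a box is in 1.63% of promoters. The AP-1 spelling TGANTCA, in 7.81% of promoters on either strand, was in none of the 6 promoters searched. Their G+C content was 52.0% for Scin, 70.0% for Whrn, 56.3% for Myo3b, 71.0% for Syne2 and 53.0% and 56.7% for Asb2, against a median of 52.7% over all promoters. A match describes letters in a window, not binding.

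Scin, Whrn, Myo3b and Asb2 each stood higher in both Nfkb2-KO libraries than in the other 6, as did 8.78% of tested genes, and Syne2 stood lower in Nfkb2-KO than in WT. The values below were used to choose the genes, and nothing is read from that share. The libraries of Nfkb2-KO and WT did not overlap in any of the 5 genes, where 21.6% of tested genes were higher and 20.9% lower without overlap. In DKO against Nfkb2-KO, 4 of the 5 were lower without overlap, beside 17.8% of tested genes. Both counts use the Nfkb2-KO libraries that chose the genes, so nothing is read from them either.

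Scin, the severing protein, had the largest difference from WT of the 5 in the deposited log2 values, though not in the authors' own fold changes. Its log2 values were 8.80 and 9.39 in WT, 8.92 and 8.83 in RelB-KO, 11.48 and 11.25 in Nfkb2-KO, and 9.08 and 8.56 in DKO. The 6 other libraries overlapped between genotypes. The Nfkb2-KO mean, 11.36 ± 0.16 (SD, n = 2), lay 2.27 above the WT mean of 9.09 ± 0.42, a 4.83-fold difference, with 2.68 in replicate 1 and 1.87 in replicate 2. DKO, at 8.82 ± 0.36, differed from Nfkb2-KO by -2.54, 5.83-fold lower, and lay next to RelB-KO at 8.87 ± 0.06. In the order of the means, WT, RelB-KO and DKO were neighbours whose libraries overlapped.

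Whrn, the scaffold, had close replicates in every genotype but DKO. Its log2 values were 8.88 and 8.95 in WT, 8.54 and 8.52 in RelB-KO, 10.74 and 10.85 in Nfkb2-KO, and 8.63 and 8.11 in DKO. Only the Nfkb2-KO libraries were above 10. Whrn lay 1.88 log2 units, or 3.67-fold, higher in Nfkb2-KO (10.80 ± 0.08) than in WT (8.92 ± 0.05), with 1.85 and 1.90 in the 2 replicates. Both RelB-KO libraries (8.53 ± 0.01) and both DKO libraries (8.37 ± 0.37) lay under both WT libraries. RelB-KO and DKO overlapped.

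Myo3b, the class III myosin, followed the same order at the top and a different one below. Its log2 values were 10.08 and 10.90 in WT, 9.77 and 9.52 in RelB-KO, 12.32 and 12.48 in Nfkb2-KO, and 9.66 and 9.85 in DKO. Nfkb2-KO (12.40 ± 0.11) lay 1.91 log2 units, 3.77-fold, above WT (10.49 ± 0.58), with 2.24 in replicate 1 and 1.58 in replicate 2. The DKO mean of 9.76 ± 0.14 was 6.27-fold under Nfkb2-KO. As with Whrn, both RelB-KO libraries (9.65 ± 0.18) and both DKO libraries lay under both WT libraries, and RelB-KO and DKO overlapped.

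Asb2, the filamin ligase subunit, differed least from WT among the genes that stood higher. Its log2 values were 9.79 and 10.36 in WT, 9.99 and 9.44 in RelB-KO, 11.76 and 11.53 in Nfkb2-KO, and 10.26 and 10.15 in DKO. The Nfkb2-KO mean (11.65 ± 0.16) was 1.57 log2 units, 2.97-fold, above WT (10.07 ± 0.41), with 1.97 and 1.17 in replicates 1 and 2. It was 2.72-fold above DKO (10.20 ± 0.08). Unlike the other genes that stood higher, the DKO mean was the second highest, although the DKO libraries fell inside the range of WT.

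Syne2 was the gene that stood lower. Its log2 values were 9.65 and 9.44 in WT, 8.78 and 8.87 in RelB-KO, 8.07 and 8.20 in Nfkb2-KO, and 8.59 and 8.0 in DKO. Both WT libraries were above all 6 knockout libraries, as they were for 2.81% of tested genes. Nfkb2-KO (8.14 ± 0.09) lay 1.41 log2 units, 2.65-fold, under WT (9.55 ± 0.15), with -1.58 and -1.24 in replicates 1 and 2. RelB-KO (8.83 ± 0.06) lay between them and overlapped neither. DKO (8.29 ± 0.42) overlapped Nfkb2-KO, from which its mean differed by 0.16.

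**Figure D1:**
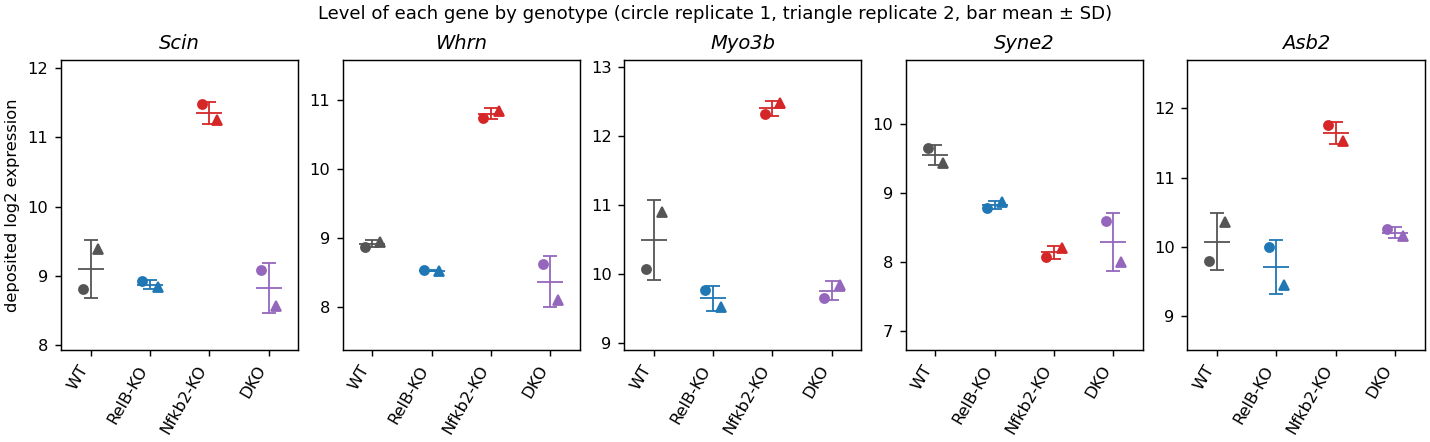
Deposited log2 expression of each gene (vertical axis, the same span in every panel) in the 2 libraries of each genotype, with the mean and SD as bars. For Scin, Whrn, Myo3b and Asb2 both Nfkb2-KO libraries sit above the other 6, and for Syne2 both WT libraries do.

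The adjusted p-values of Nfkb2-KO against WT belong to the choice of the genes and test nothing here. Without the block, limma's adjusted p was 0.0214 for Whrn and 0.0321 for Scin, just inside 0.05, and 0.0542 for Myo3b, 0.0559 for Syne2 and 0.0796 for Asb2, just outside, where 0.341% of all tested genes were inside. With the block all 5 were inside, where 2.91% of tested genes were. Leaving out WT replicate 1, with the block kept, the differences from WT were 1.84 for Scin, 1.77 for Whrn, 1.52 for Myo3b, 1.14 for Asb2 and -1.36 for Syne2. The authors' deposited table gives log2 fold changes of 1.34, 1.84, 1.25, 0.89 and -1.36 for Scin, Whrn, Myo3b, Asb2 and Syne2 in the same contrast.

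DKO with RelB-KO compares cells with and without Nfkb2 when Relb is absent. The mean difference in this comparison uses no library of the contrast that chose the genes. Its SE, interval and p-value rest on a spread fitted over all 8 libraries, so the test is not independent of that choice. None of the 5 genes passed limma's adjusted p of 0.05 there, with or without the block, where 0.00725% of tested genes passed without it and 0.0145% with it. At limma's unadjusted p of 0.05, 1 of the 5, Syne2, passed without the block, against 2.88% of all tested genes, and 2, Syne2 and Asb2, passed with it, against 8.81%. Scin differed by -0.05 ± 0.24 log2 units (SE), with a 95% interval of -0.62 to 0.51, and Whrn by -0.16 ± 0.16, with an interval of -0.56 to 0.24. Myo3b differed by 0.11 ± 0.25, with an interval of -0.50 to 0.72. For these 3 genes the libraries of DKO and RelB-KO overlapped. Asb2 was 0.49 ± 0.24 higher in DKO, without overlap, with a 95% interval of -0.09 to 1.06 (limma, adjusted p = 1.0), or 0.02 to 0.96 with the block (adjusted p = 0.55). Without RelB-KO replicate 2 it was 0.21 higher. Syne2 was 0.54 lower in DKO, without overlap (interval -1.0 to -0.08, limma unadjusted p = 0.0287, adjusted p = 1.0, and 0.546 with the block). Without DKO replicate 2 the Syne2 difference was -0.24. Of all tested genes, 27.5% had no overlap in this contrast.

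The difference that went with Nfkb2 loss in cells without Relb, less the one in cells with Relb (DKO minus RelB-KO, less Nfkb2-KO minus WT), was -2.32 for Scin, -2.04 for Whrn, -1.81 for Myo3b and -1.08 for Asb2. Within replicates 1 and 2 it was -2.52 and -2.13 for Scin, -1.76 and -2.32 for Whrn, -2.36 and -1.25 for Myo3b and -1.71 and -0.46 for Asb2. For Syne2 it was 0.87, with 1.38 and 0.36. Leaving out 1 library, with or without the block, it ran from -2.62 to -1.89 for Scin, -2.3 to -1.77 for Whrn, -2.21 to -1.4 for Myo3b and 0.58 to 1.17 for Syne2. For Asb2 it ran from -1.37 to -0.65, the latter without WT replicate 1 and with the block. These values use the Nfkb2-KO libraries and were not tested.

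**Figure D2:**
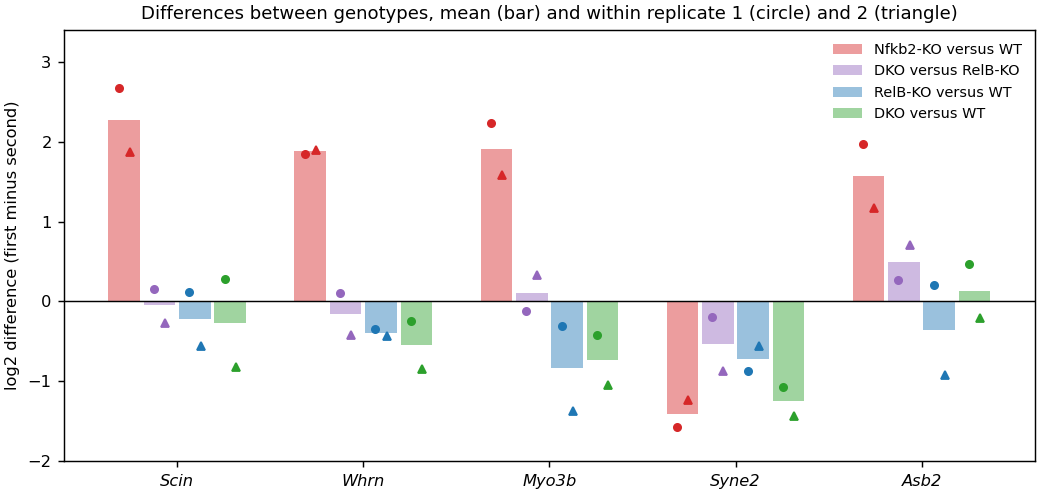
Log2 difference between genotypes for each gene (bars, first genotype minus second) with the same difference within replicate 1 (circles) and replicate 2 (triangles). The Nfkb2-KO versus WT bars run from 1.57 to 2.27 in Scin, Whrn, Myo3b and Asb2. The genes were chosen for that difference, so the distance of these bars from 0 is fixed by the choice. DKO versus RelB-KO lies between -0.54 and 0.49 in all 5 genes.

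Loss of Relb alone was compared next, and shares its WT libraries with the contrast that chose the genes. Syne2 was chosen for lying under WT, which favours a lower Syne2 value here, so its p-values are not an independent test. None of the 5 genes passed an adjusted p of 0.05 in limma, with or without the block, where 0.00725% and 0.0145% of tested genes did. At limma's unadjusted p of 0.05, 2 of the 5 passed without the block, against 1.24% of tested genes, and 3 with it, against 3.13%. Those without the block were Syne2, lower by 0.72 with a 95% interval of -1.18 to -0.26 (limma, unadjusted p = 0.00825, adjusted p = 1.0), and Myo3b, lower by 0.84 with an interval of -1.45 to -0.23 (limma, unadjusted p = 0.0142, adjusted p = 1.0). Whrn, the third with the block, was lower by 0.39 (interval -0.78 to 0.01, and -0.72 to -0.06 with the block). For these 3 genes both RelB-KO libraries were under both WT libraries, as for 1512 of 13797 tested genes. In either direction 20.6% of tested genes had no overlap. Scin (-0.22, interval -0.78 to 0.34) and Asb2 (-0.36, interval -0.94 to 0.21) overlapped. Without WT replicate 1 and with the block, Myo3b passed, at -1.23 (limma, adjusted p = 0.0456), with WT as 1 library. Without WT replicate 2 it was at -0.43 (limma, adjusted p = 1.0). The authors' deposited table gives Syne2 a log2 fold change of -0.69 with an adjusted p of 0.0585 and the other 4 genes an adjusted p of 1.0.

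DKO against WT also shares its WT libraries with the contrast that chose the genes, and Syne2 was chosen for lying under WT there. That choice favours a lower Syne2 value in DKO against WT, so the Syne2 p-values below are not an independent test. In DKO it was 2.38-fold lower than in WT and was the 1 gene of the 5 that passed with the block. Its difference was -1.25 ± 0.19 log2 units (95% interval -1.71 to -0.79, limma, adjusted p = 0.855 without the block and 0.0429 with it), and all DKO libraries were under all WT libraries. Without the block 0 of the 5 passed limma's adjusted p of 0.05 and 3 of the 5 its unadjusted p of 0.05, against 0.0145% and 5.18% of tested genes. With the block 0.0652% of tested genes passed in either direction and 0.0507% as lower, and 3 of the 5 genes passed its unadjusted p, against 12.9%. Without WT replicate 1 and with the block, Syne2 did not pass (-1.21, limma, adjusted p = 0.0965) and Myo3b did (-1.13, limma, adjusted p = 0.0341), again with WT as 1 library. Without WT replicate 2, Myo3b was at -0.33, and without DKO replicate 2, Whrn was at -0.29. With all libraries Myo3b was at -0.73 (95% interval -1.34 to -0.12) and Whrn at -0.55 (interval -0.94 to -0.15), and for both genes all DKO libraries were under all WT libraries, as for 17.6% of tested genes. Scin was at -0.27 and Asb2 at 0.13, with libraries that overlapped. The authors' deposited table gives an adjusted p of 9.82e-09 for Syne2 (log2 fold change -1.19), 0.0798 for Whrn (-0.52) and 0.32 for Myo3b (-0.41).

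Across the 8 libraries, after the mean of each replicate number was subtracted, Scin, Whrn, Myo3b and Asb2 correlated with each other at Pearson coefficients from 0.91 to 0.98. The libraries share genotypes, and the 2 Nfkb2-KO libraries are the highest for each of these 4 genes. For Syne2 the coefficients with the other genes were between -0.36 and -0.59. The genes most like Scin were Cd74, the invariant chain of class II antigen presentation, at 0.995, Abp1, Tmod2, Serpinc1 and Cd81. For Whrn they were Pigp (0.996), Hsf2, Irf2bp2, Il23r and Blk, and for Myo3b they were Arid5a (0.996), Tmprss3, Samd14, Tnfsf15 and Mid2. Asb2 was closest to Kcnk6 (0.994), Junb, Gprasp2, Tmem176a and Srgn. Syne2 was closest to Arid4a (0.99), Rtp4, Trim12c, Lfng and Ephb6. Among these, Tmod2, a tropomodulin that caps actin filaments, moved only from 4.34 to 4.89. Blk, one of the B cell markers described further on, moved from 3.3 to 3.6 and was highest in Nfkb2-KO.

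To set the 5 genes beside the rest of the cytoskeleton, 213 other genes in 12 lists were looked up, of which 205 were in the table and 192 were tested. In Nfkb2-KO against WT, 0 of the 192 passed limma's adjusted p of 0.05 and 17 its unadjusted p of 0.05, or 8.85% against 10.7% of all tested genes. Their median difference was 0.02 log2 units, against 0.00 over all tested genes. With the block 2 were higher, Marcksl1 and Capg, beside 1.91% of tested genes, and 1 was lower, Syne1, beside 1.0%. Without WT replicate 1 as well, 2 passed, Marcksl1 (1.12, limma, adjusted p = 0.016) and Myo1f (-0.89, limma, adjusted p = 0.0125), and Capg and Syne1 did not (limma, adjusted p = 0.135 and 0.104). Marcksl1 encodes a MARCKS-family protein that binds actin and the plasma membrane. For Nfkb2-KO against WT, the authors' deposited table gives Marcksl1 a log2 fold change of 0.99 with an adjusted p of 1.45e-09. It gives Syne1 -0.66 (adjusted p = 0.000624) and Capg 0.54 (adjusted p = 0.000228), and 739 of 11881 genes were under 0.05. Marcksl1 is there at -0.74 in RelB-KO (adjusted p = 0.000682) and -0.88 in DKO (adjusted p = 9.79e-07) against WT. The other list genes were not looked up there. In DKO against RelB-KO and RelB-KO against WT, 0 of the 192 passed limma's adjusted p of 0.05 with or without the block, and 3 and 2 of them passed its unadjusted p of 0.05, or 1.56% and 1.04%, against 2.88% and 1.24% of all tested genes. In DKO against WT, 0 passed limma's adjusted p with or without the block, and 15 were under its unadjusted p, or 7.81%, against 5.18% of all.

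In DKO against Nfkb2-KO, 1 of the 192 genes passed, Marcksl1, where 0.768% of tested genes passed and 0.645% did as lower, and 25 were under limma's unadjusted p of 0.05 against 9.86% of all. The Marcksl1 log2 values were 10.57 and 10.54 in WT, 9.53 and 10.07 in RelB-KO, 11.49 and 11.59 in Nfkb2-KO, and 9.65 and 9.69 in DKO. It was highest in the Nfkb2-KO libraries and lower in all RelB-KO and DKO libraries than in WT. It fell by 1.87 ± 0.16 in DKO, 3.65-fold, against Nfkb2-KO (limma, adjusted p = 0.0125). The test of its response to Nfkb2 loss with and without Relb gave -1.12 ± 0.18 with the block (limma, adjusted p = 0.0399, and 0.47 without it), a test that 0.471% of tested genes passed with the block and 0.00725% without. Without WT replicate 1 and with the block it did not pass (-1.25, limma, adjusted p = 0.0551). Leaving out any 1 Nfkb2-KO or DKO library brought the count of list genes to 0. With the block 2 list genes were higher in DKO and 6 lower, where 5.02% of tested genes passed, 2.07% as higher and 2.96% as lower. Those higher were Mapre2, an end-binding protein of microtubules (0.78), and Dstn, the actin-depolymerizing factor destrin (0.37). Those lower were Marcksl1, Capg (-0.59), Myo1h (-0.56), the formin Fmn1 (-0.55), Fscn1, the actin-bundling fascin (-0.51), and the Rac exchange factor Tiam1 (-0.45).

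**Figure D3:**
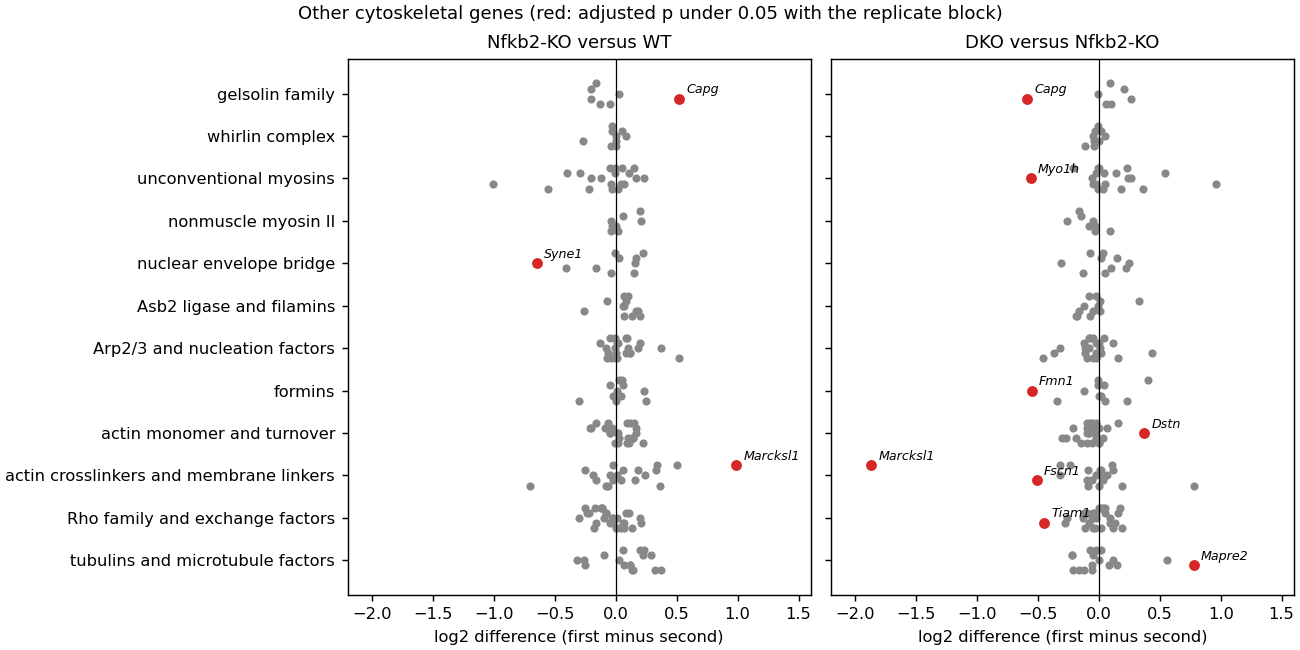
Log2 difference (horizontal axis) of each of the 192 other cytoskeletal genes, by list, in Nfkb2-KO versus WT and DKO versus Nfkb2-KO, with the genes under an adjusted p of 0.05 with the replicate block named in red. Most dots sit near 0. In Nfkb2-KO versus WT the farthest are Myo6 at -1.01, not past the threshold, and Marcksl1 at 0.99, and in DKO versus Nfkb2-KO the farthest is Marcksl1 at -1.87.

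Of the 7 gelsolin family genes tested, Capg, which caps filament ends, had log2 values of 13.41 and 13.57 in WT and 14.10 and 13.92 in Nfkb2-KO, a difference of 0.52 ± 0.12 (limma, adjusted p = 0.213, and 0.0376 with the block). Gsn, gelsolin itself, differed by -0.20 ± 0.17 (limma, adjusted p = 0.766), and its libraries lay between 7.79 and 8.36. Among whirlin's partners in hair cells and elsewhere, Eps8 had log2 values of 0.41 to 0.44, Myo15 had values of 2.8 to 2.9, and Mpp1 lay between 9.56 and 10.21.

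Of the 20 other unconventional myosins tested, 0 passed limma's adjusted p of 0.05 in Nfkb2-KO against WT with or without the block, and 4 (20.0%) its unadjusted p of 0.05, against 10.7% of all tested genes. Myo3a, the other class III myosin, was listed at 0 in all 8 libraries. Myo6, which walks toward the minus end of actin filaments, had log2 values of 8.06 and 7.20 in WT, 7.55 and 7.97 in RelB-KO, 6.56 and 6.67 in Nfkb2-KO, and 7.73 and 7.43 in DKO. Both Nfkb2-KO libraries were under the other 6, and the difference from WT was -1.01 ± 0.29 (limma, adjusted p = 0.289, and 0.0657 with the block). Without WT replicate 1 and with the block it was -0.55. Against RelB-KO it was -1.15, with an adjusted p of 0.196 in limma and 0.0354 with the block. With the block 231 of 13797 tested genes passed as lower in that contrast and 384 as higher. Of the 192 list genes, 1 then passed as lower, Myo6, and 3 as higher. Those higher were Marcksl1, Capg (0.63, limma, adjusted p = 0.0127) and Fscn1 (0.51, limma, adjusted p = 0.00706). Without the block the 1 list gene that passed there was Marcksl1 (1.74, limma, adjusted p = 0.0142), where 91 tested genes passed as higher. At limma's unadjusted p of 0.05, 32 list genes passed there, or 16.7%, against 11.9% of all tested genes. Myo1f differed by -0.56 ± 0.19 from WT (limma, adjusted p = 0.377, and 0.117 with the block), and Myh9, the heavy chain of nonmuscle myosin, lay between 14.81 and 15.14.

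Around the nucleus, Syne1, which encodes nesprin-1, had log2 values of 10.31 and 10.17 in WT and 9.75 and 9.43 in Nfkb2-KO, a difference of -0.65 ± 0.16 (limma, adjusted p = 0.244, and 0.0329 with the block). In DKO it was at 10.02 and 9.66. Its SUN partner Sun2 differed by -0.41 ± 0.12 between Nfkb2-KO and WT (limma, adjusted p = 0.295, and 0.0598 with the block), while Sun1 stayed between 10.28 and 10.43. Flna, which encodes filamin A, a target of Asb2, differed by 0.07 ± 0.10 in Nfkb2-KO against WT (limma, adjusted p = 0.89). Cul5, the cullin of that ligase, differed by 0.17 ± 0.08 (limma, adjusted p = 0.559).

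Genes next to the 5 on the chromosome were examined after the values had been seen. Of the 20 nearest tested genes, 2 on each side and 3.81 to 1190 kb away, 0 passed limma's adjusted p of 0.05 in Nfkb2-KO against WT, 3 its unadjusted p of 0.05, and 1 its adjusted p with the block, where 0.341%, 10.7% and 2.91% of all tested genes passed. In DKO against Nfkb2-KO 1 passed with and without it, where 5.02% and 0.768% of tested genes did. That gene was Tnfsf15, a TNF-family cytokine 229 kb from Whrn, also among the genes most like Myo3b. It differed by 0.88 ± 0.12 between Nfkb2-KO and WT (limma, adjusted p = 0.0559, and 0.00324 with the block) and by -1.15 ± 0.12 between DKO and Nfkb2-KO (limma, adjusted p = 0.0166). The differences of the 20 neighbours from WT ran from -0.48 to 0.88.

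**Figure D4:**
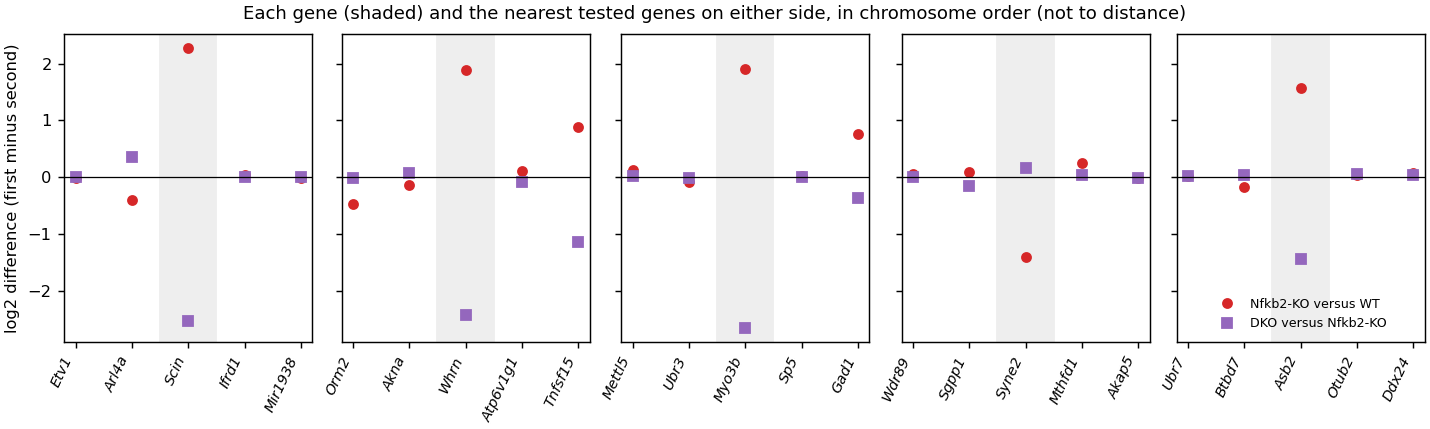
Log2 difference of each gene (shaded) and its 2 nearest tested genes on each side in Nfkb2-KO versus WT (circles) and DKO versus Nfkb2-KO (squares), in chromosome order and not to distance. The shaded genes were chosen for their difference in Nfkb2-KO versus WT, so their distance from 0 there is fixed by the choice. The neighbours run from -0.48 to 0.88 in Nfkb2-KO versus WT and from -1.15 to 0.36 in DKO versus Nfkb2-KO. Among them, Tnfsf15 near Whrn differs by 0.88 and -1.15.

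Markers of other cells were read alongside, since in bulk RNA a change in the number of cells of a type cannot be told apart from a change in RNA per cell. The 5 Treg and T cell markers were all tested. Their summed un-logged level was 121000 to 125000 in WT, 125000 to 134000 in RelB-KO and 129000 to 133000 in Nfkb2-KO. It was highest in DKO, at 145000 to 157000. The largest marker in that sum was Il2ra, at log2 values of 16.33 and 16.52 in DKO and 15.93 to 16.18 elsewhere. Ctla4 was at 14.54 and 14.80 in DKO and 14.35 to 14.54 elsewhere. Foxp3 was at 14.19 and 13.95 in DKO against 14.11 and 14.24 in WT. Cd4 was at 13.67 and 13.52 against 13.65 and 13.61, and Cd3e at 12.71 in both DKO libraries against 12.77 and 12.96. The myeloid and dendritic list, with 6 of 8 markers tested and Itgax under the minimum, summed to 579 to 629 in Nfkb2-KO against 332 to 434 in WT, 292 to 496 in RelB-KO and 265 to 355 in DKO. Most of that sum was Zbtb46, at log2 values of 9.12 and 9.01 in Nfkb2-KO and 8.49 and 8.07 in WT, while Lyz2, Csf1r, Itgam and Cd14 in Nfkb2-KO lay within the range of the other 6 libraries. Zbtb46 passed with the block in Nfkb2-KO against WT (0.79, limma, adjusted p = 0.0239, and 0.395 without it), and did not without WT replicate 1 as well (adjusted p = 0.087). The B cell list, with 4 of 6 tested, Ms4a1 under the minimum and Pax5 at 0, summed to 207 to 218 in Nfkb2-KO, 162 to 187 in WT, 170 to 221 in RelB-KO and 224 to 234 in DKO. Of these, Blk passed with the block in Nfkb2-KO against WT (0.21, limma, adjusted p = 0.0244, and 0.0929 without it), with log2 values of 3.6 and 3.58 in Nfkb2-KO and 3.3 to 3.39 elsewhere, and did not without WT replicate 1 as well (adjusted p = 0.105). The CD8 T and NK list, with 3 of 5 tested, summed to 258 to 311. The stromal, endothelial and epithelial list, with 3 of 7 tested and Cdh5 and Krt8 at 0, summed to 1400 to 1500 in Nfkb2-KO and 1430 to 1830 elsewhere. No erythroid or platelet marker was tested, and Hba-a1 was at 0. The part of these markers in the differences of the 5 genes was not tested.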

How the data were processed

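RNA was measured in 8 Treg cell libraries, 2 for each of 4 genotypes. Per the file headers, the authors deposited log2 RPKM values after batch correction, with log2 fold changes and p-values (raw and adjusted) for every knockout relative to WT. The submitters' processing notes list STAR, DESeq2 1.10.1 and mm10, with no roles given, and the counting program, strand setting and batch method are not given in the sources used here. Un-logged, the values of a library sum to 18.16 to 19.71 M, more than RPKM allows, so they are treated as log2 expression of unknown base level, and depth is unknown. Weakly expressed genes hardly vary between libraries, so their fold changes may be understated. The 8 columns of z-scores were not used here, nor were 1 gene with a blank cell and 6247 genes at 0 throughout.

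A gene was tested where its mean un-logged value was 1 or more, which 13797 genes met. They were fitted with limma 3.58.1 in R 4.3.3 over all 8 libraries, with a mean for each genotype and a variance trend (4 residual degrees of freedom). A call is a Benjamini-Hochberg adjusted p under 0.05 over every tested gene. No count column was found, so the planned count test was not used. Replicate differences correlated across genes at 0.812 to 0.887 in the 6 pairs of genotypes, so the numbers pair the libraries. This pairing is read from the data, since the labels give only the numbers, and values with the number as a block (3 residual degrees of freedom) stand beside results whose call they change.

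The members, the gene lists and the tests were chosen with earlier results of these data known. Named genes are the 5 members, list genes past the threshold (up to 8 a contrast), preset partner genes, the 5 genes most correlated with each member, and Relb, Nfkb2 and Foxp3. Xist, Ddx3y, the neighbouring genes, Zbtb46 and the fits of single genes without WT replicate 1 were added after the values were seen. Positions are from GENCODE M21 and promoters from RefSeq GRCm38.p6, both of the mm10 build, and all 5 symbols matched both. Alternatives were a pseudocount of 1, no filter and a stricter one (a mean of 16), quantile normalization, median centring, no variance trend, only the groups compared, the block, and leaving out each library.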

Additional observations from a re-analysis of the deposited data

Results flagged for a closer look

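Marcksl1, the MARCKS-family gene, differed between Treg cells with and without Relb in its response to loss of Nfkb2, by the test of that difference with the replicate block. The difference (DKO minus RelB-KO, less Nfkb2-KO minus WT) was -1.12 ± 0.18 log2 units (SE, limma, adjusted p = 0.0399 with the block and 0.47 without it). Without WT replicate 1 and with the block it was -1.25 ± 0.19 and did not pass (limma, adjusted p = 0.0551). Nfkb2-KO stood 0.99 above WT and DKO 0.13 under RelB-KO. With the block 0.471% of tested genes passed this test, and 0.00725% without it. The 4 genotypes have 2 libraries each, too few to tell for Marcksl1 which library of a genotype stands apart.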

How the results depend on the processing

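With the replicate block, the count of the 5 genes called in DKO against WT moved from 0 to 1, and the counts of other cytoskeletal genes called moved from 0 to 3 in Nfkb2-KO against WT and from 1 to 8 in DKO against Nfkb2-KO. Leaving out WT replicate 1 as well gave 1 of the 5 genes in RelB-KO against WT, 1 in DKO against WT, and 2 and 13 list genes. Where 1 library of a genotype is left out, the other is assumed to vary like the other groups. Leaving out 1 library at a time, with or without the block, the counts ran from 0 to 1 of the 5 genes in RelB-KO against WT and in DKO against WT, from 0 to 2 list genes in Nfkb2-KO against WT, and from 0 to 13 in DKO against Nfkb2-KO. Without either RelB-KO library the count in Nfkb2-KO against WT was 1. The cause was not tested. The other counts, including those of DKO against RelB-KO, stayed at 0.

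Differences that changed sign did so only when 1 library was left out. Without the block, Scin then ran from -0.51 to 0.07 in RelB-KO and from -0.57 to 0.02 in DKO against WT, turning without WT replicate 2, and was at -0.65 and -0.7 with the block and without WT replicate 1. In DKO against RelB-KO, Scin ran from -0.31 to 0.20 and Whrn from -0.42 to 0.10, turning without DKO replicate 2, and Myo3b from -0.02 to 0.23, turning without RelB-KO replicate 2. Syne2 in DKO against Nfkb2-KO ran from -0.14 to 0.45, turning without DKO replicate 1. Asb2 in DKO against WT ran from -0.16 to 0.41, turning without WT replicate 1, and was at -0.31 with the block as well. None of these was called. With or without the block, the differences of Scin, Whrn, Myo3b and Asb2 between Nfkb2-KO and WT ran from 1.84 to 2.57, 1.77 to 1.94, 1.51 to 2.32 and 1.14 to 1.86, and those of Syne2 from -1.52 to -1.30.

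The 2 libraries a genotype, the unknown depth and the mild scale of weakly expressed genes limit every value here. Beyond the calls named in the text, the block changed no call of the 5 genes among the tested contrasts.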
